A study of Rattus norvegicus with 54 samples.

Results

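The genes described here are the vascular growth factors angiopoietin-1 (Angpt1) and angiopoietin-2 (Angpt2), their receptor Tek and its relative Tie1, apelin (Apln) and its receptor (Aplnr), and 4 genes that mark endothelial identity, Pecam1, Cdh5, Vwf and Eng. They were picked out by symbol, with no measured value in the rule itself but with earlier results of these data known, and are 10 of the 40319 genes listed in each of the 54 count tables. All 10 were found in every table, and all 10 passed the filter on low counts in every comparison.

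Left ventricular tissue of female athymic F344/NJcl-rnu/rnu rats was sequenced 1 week after surgery, in 9 groups of 6 libraries (3 treatments and 3 zones). Sham rats had sham surgery and no treatment. MI rats had a permanent ligation of the left anterior descending coronary artery (LAD) and no treatment. MI+Cell Sheet rats had the same ligation, after which a bi-level sheet of human smooth muscle cells (SMCs) and endothelial progenitor cells (EPCs) was laid on the epicardium over the ischemic area. The athymic background, which lacks most T cells, was shared by all 3 treatments, so that the grafted human cells faced a weakened immune response and no group stood for a rat with an intact immune system. Tissue below the ligation was taken as 3 pieces named infarct, border and remote, and sham pieces carry the same zone names although these hearts had no infarct. Poly(A)-enriched RNA was measured, the reads were aligned to the rat genome, and human transcripts were not analysed here. How many reads of the human cells were counted on rat genes was not tested. Libraries of 1 group bear the label of technical replicates, whereas the study speaks of separate animals, and each was counted here as 1 animal; if the label were right, the p-values would measure technical spread only.

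Angiopoietin-1 activates the receptor tyrosine kinase Tek (Tie2) on endothelial cells and stabilizes vessels, while angiopoietin-2, which endothelial cells store and release when activated, often acts as its antagonist and loosens the vessel wall. Tie1 binds no angiopoietin with high affinity but modulates Tek. Apelin is a peptide that endothelial and other cells secrete, and its G protein-coupled receptor acts in vessel growth and in the contraction of the heart. Pecam1 (CD31) and Cdh5 (VE-cadherin) hold endothelial cells together at their junctions, von Willebrand factor (Vwf) is the adhesive protein that tethers platelets to injured vessel walls, and endoglin (Eng) is a co-receptor for ligands of the TGF-β family.

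Transcription factors of the ETS family act at many endothelial promoters. The sequence before 3 of the genes is shown for its copies of GGAAG, which contains the ETS core GGAA. Tie1, Eng and Apln were the 3 of the 10 genes matched in the RefSeq promoter table (build GRCr8). The other 7 are named only. Each run is the 250 bases before the annotated start, read 5′ to 3′ on the strand of the gene, and capitals mark GGAAG or its reverse complement. Copies of GGAA not followed by G were left unmarked and uncounted. The counts themselves were made on another assembly (mRatBN7.2). Tie1 lies on the minus strand at chr5:137304982-137305231, Eng on the plus strand at chr3:36332029-36332278 and Apln on the minus strand at chrX:132091247-132091496.
Tie1: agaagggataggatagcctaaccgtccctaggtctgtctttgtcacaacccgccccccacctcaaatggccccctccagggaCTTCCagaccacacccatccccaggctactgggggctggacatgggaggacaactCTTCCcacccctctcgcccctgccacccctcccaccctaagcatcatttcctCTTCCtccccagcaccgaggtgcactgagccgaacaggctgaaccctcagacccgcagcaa
Eng: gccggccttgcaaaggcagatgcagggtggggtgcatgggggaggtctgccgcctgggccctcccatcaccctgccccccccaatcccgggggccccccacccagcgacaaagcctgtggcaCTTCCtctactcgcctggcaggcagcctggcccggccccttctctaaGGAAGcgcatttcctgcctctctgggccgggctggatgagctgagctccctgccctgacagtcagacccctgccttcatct
Apln: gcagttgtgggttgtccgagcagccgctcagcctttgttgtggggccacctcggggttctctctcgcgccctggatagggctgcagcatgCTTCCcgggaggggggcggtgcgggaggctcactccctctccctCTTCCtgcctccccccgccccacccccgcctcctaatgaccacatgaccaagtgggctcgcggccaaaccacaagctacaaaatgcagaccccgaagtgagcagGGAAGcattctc
GGAAG occurred 3 times before Tie1, 2 times before Eng and 3 times before Apln, and the hypoxia response core ACGTG occurred in 0 of the 3, on either strand. Of 33469 promoter windows of the same length, 63.3% held GGAAG and 16.6% held ACGTG, so that a match to GGAAG is common. These matches describe letters in the windows and say nothing of binding.

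The counts assigned to genes ranged from 12699204 to 23397754 per library, and no pair of libraries within a group held identical counts. Sham replicate 5 stood apart from the other sham hearts in all 3 zones. Its summed level of 10 cardiomyocyte markers was 23260 to 37600 CPM (counts scaled to a common library size), against 64490 to 82490 CPM in the other sham libraries, and its summed level of 10 macrophage markers was 1456 to 2060 CPM, against 217 to 447.1 CPM. MI+Cell Sheet replicate 1 stood apart in the border zone, with a cardiomyocyte sum of 184.8 CPM against 9712 to 33690 CPM in the other 5 libraries of its group. It also stood apart in the remote zone, where its cardiomyocyte sum was 25480 CPM against 53630 to 75600 CPM, its fibroblast sum 35220 CPM against 3303 to 10250 CPM and its macrophage sum 928.2 CPM against 266.5 to 483.3 CPM. Surfactant and other lung markers summed to 208 CPM in the border zone of MI replicate 3 and to 208.9 CPM in that of MI+Cell Sheet replicate 4, where the other border zone libraries of these groups held at most 15.3 CPM, and 1 MI+Cell Sheet infarct zone library reached 75.2 CPM, where the median of its group was 5.06 CPM. Results that rest on sham replicate 5 or MI+Cell Sheet replicate 1 are given with and without them.

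Sham replicate 5 was also low in the genes described here. In 28 of 30 combinations of gene and zone it lay below all 5 other sham hearts, and for 9 of the 10 genes, Angpt2 being the exception, it did so in all 3 zones. Tie1 in the infarct zone, for example, was 90.5 CPM in sham replicate 5 and 192.8 to 225.5 CPM in the other 5, and Aplnr in the border zone was 29.3 CPM against 106.9 to 128.1 CPM. Sham ranges below include this heart unless stated otherwise.

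Compared with sham, MI hearts had less Angpt1 and more Angpt2 in the infarct zone and more Angpt2 in the border zone, while 0 of the 10 genes passed the test in remote tissue. Hearts with the cell sheet had more Cdh5 in the border zone than untreated MI hearts. Against sham, the hearts with the sheet had less Angpt1 and Tek and more Angpt2 in both the infarct and border zones, and more Cdh5 in the border zone. Of these calls against sham, those of Angpt1 and Angpt2 held under every other setting tried. That of Tek in the infarct zone was lost under several, and those of Tek and Cdh5 in the border zone under most, as given below. Tie1, Apln, Aplnr, Pecam1, Vwf and Eng passed the test in none of the 9 comparisons within zones when all libraries were used. In bulk tissue, fewer cells of a type and less RNA per cell cannot be told apart, and this holds for each result that follows.

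The comparisons within zones used edgeR's quasi-likelihood test, 6 libraries against 6, with p-values adjusted over all genes after Benjamini and Hochberg and called below 0.05. Between MI and sham, 2 of 10 genes were called in the infarct zone, where 49.9% of all genes tested were called. The border zone had 1 of 10 called (background 41.7%). The remote zone had 0 of 10 called by edgeR (background 25.8%), with 1 at an unadjusted p under 0.05 and 0 called by DESeq2. Between MI+Cell Sheet and MI, 1 of 10 was called in the border zone (background 18%). Remote tissue had 0 of 10 called by edgeR (background 17.1%), with 1 at an unadjusted p under 0.05 and 1 called by DESeq2. Infarct tissue had 0 of 10 called (background 0%), with 1 at an unadjusted p under 0.05 and 0 called by DESeq2. Between MI+Cell Sheet and sham, 3 of 10 were called in the infarct zone (background 57.9%), 4 of 10 in the border zone (background 43.6%) and 0 of 10 in the remote zone, where 1 gene of 15157 was called (background 0.00660%), 0 of the 10 had an unadjusted p under 0.05 and DESeq2 called 0. In each comparison with a background above 1%, the share of these genes that passed was below that of all genes.

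Without sham replicate 5, the number called against sham rose in 4 of 6 comparisons, and the share of all genes called rose as well. MI then differed from sham in 4 genes in the infarct zone (Angpt1, Angpt2, Apln and Aplnr; 64.8% of all genes), 4 in the border zone (Angpt1, Angpt2, Tek and Cdh5; 60.8% of all genes) and 1 in the remote zone (Angpt2; 46.5% of all genes). MI+Cell Sheet then differed from sham in 7 genes in the infarct zone (Angpt1, Angpt2, Tek, Tie1, Aplnr, Pecam1 and Vwf), where 70% of all genes were called. The border zone count stayed at the same 4 genes, while that of all genes rose to 61.6%, and 0 of the 10 passed in the remote zone (0.111% of all genes). Without both sham replicate 5 and MI+Cell Sheet replicate 1, the infarct zone gave 8 genes, with Apln added (67.1% of all genes). The border zone then gave 5, with Vwf added (60.7% of all genes). Without MI+Cell Sheet replicate 1 alone, 2 genes (Angpt1 and Angpt2) differed from sham in the infarct zone (51.1% of all genes). The same 2 differed in the border zone (39.4% of all genes). The infarct zone count also fell to these 2 without sham replicate 2 or 6 or MI+Cell Sheet replicate 2 or 4, and the border zone count without sham replicate 1, 2 or 4 or MI+Cell Sheet replicate 2, 4, 5 or 6. Angpt1 and Angpt2 kept their calls against sham in both zones under all 19 alternatives.

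**Figure D1:**
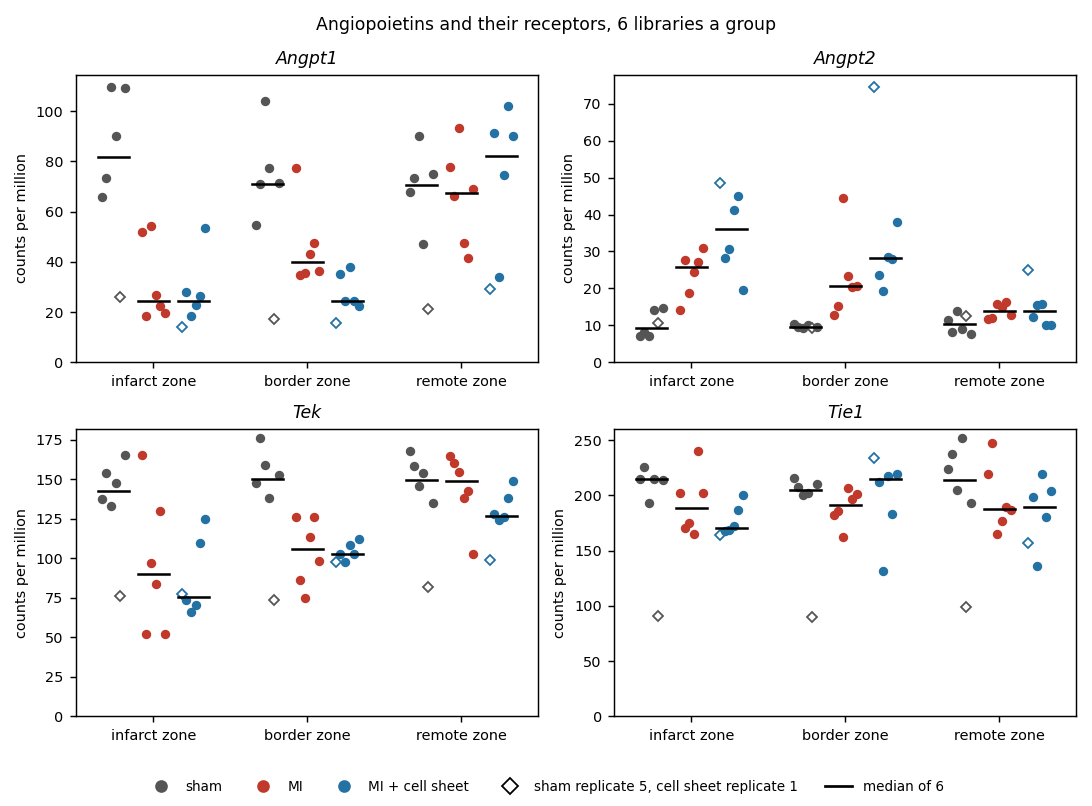
Levels of Angpt1, Angpt2, Tek and Tie1 in CPM (vertical axes, linear) in each of the 54 libraries, by zone and treatment, with 6 points a group and a bar at the median; open diamonds mark sham replicate 5 and MI+Cell Sheet replicate 1. Angpt2 in the border zone was 9.21 to 10.3 CPM in sham hearts, and every MI and MI+Cell Sheet heart lay above this range.

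Angpt1, the ligand that activates Tek, was lower after infarction in the infarct zone. Its lowest, median and highest levels there were 26.0, 81.9 and 109.8 CPM in sham, 18.5, 24.6 and 54.2 CPM in MI, and 14.1, 24.6 and 53.5 CPM in MI+Cell Sheet hearts. The 5 sham hearts other than replicate 5, at 65.9 CPM or more, lay above all 12 infarcted hearts, while sham replicate 5 lay among them. MI was lower than sham by 2.46-fold (log2 difference −1.30, SE 0.372, adjusted p = 0.0129, edgeR's quasi-likelihood test). MI+Cell Sheet was lower than sham by 2.92-fold (log2 difference −1.54, SE 0.381, adjusted p = 0.00507, edgeR). Without sham replicate 5 these differences were −1.48 (adjusted p = 0.00131) and −1.73 (adjusted p = 0.000397), both from edgeR's quasi-likelihood test. Between MI+Cell Sheet and MI the test was not passed (approximate 95% interval of the log2 difference from −0.96 to 0.47).

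Angpt1 in the border zone measured 17.4, 71.2 and 104.1 CPM in sham, 34.7, 39.8 and 77.5 CPM in MI, and 15.5, 24.4 and 38.2 CPM in MI+Cell Sheet hearts (lowest, median and highest). The hearts with the sheet were lower than sham (log2 difference −1.32, SE 0.353, adjusted p = 0.0102, edgeR's quasi-likelihood test). All 6 lay below the 5 sham hearts other than replicate 5, which lay at 54.8 CPM or more. MI was not called against sham with all libraries (log2 difference −0.53, SE 0.341, adjusted p = 0.226, edgeR), and was called without sham replicate 5 (−0.73, adjusted p = 0.0129). The difference between MI+Cell Sheet and MI missed the threshold narrowly (log2 difference −0.76, SE 0.246, adjusted p = 0.0503, edgeR), and its adjusted p ranged from 0.0243, by DESeq2, to 0.167 over the alternatives. Their ranges overlapped.

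Remote zone Angpt1 medians were 70.6 CPM in sham, 67.5 CPM in MI and 82.4 CPM in MI+Cell Sheet hearts, and the 3 groups overlapped. The change of Angpt1 after infarction differed between zones: the difference of MI from sham was lower in the infarct than in the remote zone (log2 difference of the differences −1.445, SE 0.238, adjusted p = 0.00142, edgeR's quasi-likelihood test with the animal as a block). This zone term was called for 1 of the 10 genes, where 28.9% of all genes were called. Without the block for the animal it missed the threshold (adjusted p = 0.0812, edgeR). The block takes libraries of equal number within a treatment as 1 heart, and their deviations correlated above 0.1 between infarct and remote zones in 6 of 6 sham pairs and 4 of 6 MI pairs.

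Angpt2, the ligand that opposes Angpt1 in many settings, moved the other way. Infarct zones measured 7.15, 9.34 and 14.6 CPM in sham, 14.1, 25.8 and 30.9 CPM in MI, and 19.5, 36.0 and 48.6 CPM in MI+Cell Sheet hearts (lowest, median and highest). MI and sham overlapped only at their edge, and every heart with the sheet lay above every sham heart. MI exceeded sham by 2.31-fold (log2 difference 1.21, SE 0.243, adjusted p = 0.00237, edgeR's quasi-likelihood test). MI+Cell Sheet exceeded sham by 3.49-fold (log2 difference 1.80, SE 0.263, adjusted p = 0.000259, edgeR). Between MI+Cell Sheet and MI, Angpt2 was not called after adjustment over all genes (approximate 95% interval of the log2 difference from 0.11 to 1.04, unadjusted p = 0.0319, adjusted p = 0.549, edgeR).

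Border zone Angpt2 stayed between 9.21 and 10.3 CPM in all 6 sham hearts, with sham replicate 5 at 9.21 CPM. It measured 12.7, 20.6 and 44.6 CPM in MI and 19.3, 28.3 and 74.5 CPM in MI+Cell Sheet hearts (lowest, median and highest), and neither group overlapped with sham. MI exceeded sham by 2.36-fold (log2 difference 1.24, SE 0.256, adjusted p = 0.0041, edgeR's quasi-likelihood test), and MI+Cell Sheet exceeded sham by 3.62-fold (log2 difference 1.86, SE 0.288, adjusted p = 0.000382, edgeR). The difference of MI+Cell Sheet from MI, which overlapped, was not called. The highest border value, 74.5 CPM, came from MI+Cell Sheet replicate 1, and without it the difference from sham was 1.497 (adjusted p = 6.12e-05, edgeR). Remote zone Angpt2 medians were 10.3 CPM in sham, 13.8 CPM in MI and 14.0 CPM in MI+Cell Sheet hearts. MI did not pass against sham there with all libraries (log2 difference 0.41, SE 0.17, adjusted p = 0.0943, edgeR) and did without sham replicate 5 (0.47, adjusted p = 0.0306).

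The ratio of Angpt2 to Angpt1 within a library does not depend on how libraries are scaled. On the log2 scale, it averaged −2.85 ± 0.877 (SD, n = 6) in sham, −0.34 ± 1.10 in MI and 0.45 ± 1.09 in MI+Cell Sheet infarct zones. In all, 6 ratios of these genes were compared in 3 zones and 3 treatment pairs, 54 comparisons in all, with exact permutation tests, 2-sided, in which 6 hearts against 6 cannot give a p below 0.00216. The ratio was 5.72-fold higher in MI than in sham infarct zones (exact permutation p = 0.00649, adjusted p = 0.0319 over the 54 comparisons) and 9.87-fold higher in MI+Cell Sheet than in sham infarct zones (exact permutation p = 0.00433, adjusted p = 0.0292). In the border zone it was 7.43-fold higher in MI+Cell Sheet than in sham (exact permutation p = 0.00216, adjusted p = 0.0195), with no overlap of the 2 groups. Both calls for MI+Cell Sheet held under all 20 other settings, and that for MI in the infarct zone under 15 of 20. For each ratio comparison, the 20 settings include leaving out the 6 hearts of the treatment not compared, 1 at a time. Those settings reach a call only through the adjustment over the 54 comparisons. The border zone difference of MI from sham, 2.86-fold, did not pass after adjustment (exact permutation p = 0.0238, adjusted p = 0.0677), nor did that of MI+Cell Sheet from MI (1.38 on the log2 scale, exact permutation p = 0.0325, adjusted p = 0.0877). MI+Cell Sheet and MI were each set against the same sham hearts, so the values of these comparisons are not independent of each other.

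Marker sums of other cells are set beside Angpt1 and Angpt2 by group, and no correlation with them was computed. In the infarct zone, the summed level of 10 cardiomyocyte markers was 25610 to 82490 CPM in sham, 3461 to 41180 CPM in MI and 969.6 to 36530 CPM in MI+Cell Sheet hearts. The sum of 10 fibroblast markers was 4307 to 6193 CPM in sham, 13490 to 36560 CPM in MI and 27570 to 55170 CPM in MI+Cell Sheet hearts. The sum of 10 mural cell markers, of pericytes and smooth muscle, was 1293 to 2408 CPM in sham, 1718 to 2873 CPM in MI and 2163 to 3500 CPM in MI+Cell Sheet hearts. Of the 10 mural markers, 5 were higher and 2 lower in MI than in sham, beside 22.7% and 27.2% of all genes. All members of these 3 lists were detected in each group. Macrophage markers summed to 267.3 to 2030 CPM in sham, 1056 to 1998 CPM in MI and 846.1 to 2319 CPM in MI+Cell Sheet hearts. The part of these markers in the levels of Angpt1 and Angpt2 was not tested.

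Tek, the angiopoietin receptor, was lower than sham in hearts with the cell sheet. Its infarct zone levels were 76.1, 142.5 and 165.1 CPM in sham, 51.8, 90.2 and 165.3 CPM in MI, and 65.9, 75.6 and 124.5 CPM in MI+Cell Sheet hearts (lowest, median and highest). Every heart with the sheet lay below the 5 sham hearts other than replicate 5, which lay at 132.9 CPM or more. MI+Cell Sheet was lower than sham by 1.56-fold (log2 difference −0.64, SE 0.218, adjusted p = 0.0247, edgeR's quasi-likelihood test). This call was lost without any 1 of sham replicates 2 and 6 and MI+Cell Sheet replicates 1, 2 and 4, and without sham replicate 5 the difference was −0.77 (adjusted p = 0.00158, edgeR). MI ranged so widely in the infarct zone that it overlapped with all other groups, and it was not called against sham (log2 difference −0.49, SE 0.29, adjusted p = 0.178, edgeR).

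Border zone Tek measured 73.6, 150.1 and 175.7 CPM in sham, 74.7, 105.9 and 125.9 CPM in MI, and 97.5, 102.9 and 111.9 CPM in MI+Cell Sheet hearts (lowest, median and highest). The 5 sham hearts other than replicate 5 lay at 138.1 CPM or more, above all 12 infarcted hearts. MI+Cell Sheet was lower than sham by 1.38-fold (log2 difference −0.46, SE 0.173, adjusted p = 0.0481, edgeR's quasi-likelihood test), and MI was not called (log2 difference −0.44, SE 0.198, adjusted p = 0.0892, edgeR). Without sham replicate 5 both were called, at −0.60 (adjusted p = 0.000102) for MI+Cell Sheet and −0.57 (adjusted p = 0.0037) for MI, both from edgeR. The call for MI+Cell Sheet was kept under 3 of 19 alternatives only. Remote zone Tek medians were 149.7 CPM in sham, 148.6 CPM in MI and 126.9 CPM in MI+Cell Sheet hearts, and the groups overlapped.

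Tie1, the relative of Tek, had the smallest spread of group medians among the 10 genes, from 170.8 CPM (MI+Cell Sheet, infarct zone) to 214.7 CPM (MI+Cell Sheet, border zone). Its ranges overlapped between treatments in every zone, and with all libraries it was called in none of the comparisons. Without sham replicate 5, MI+Cell Sheet was lower than sham in the infarct zone (log2 difference −0.28, adjusted p = 0.0126, edgeR's quasi-likelihood test).

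The ratio of Tie1 to Tek passed the test in 3 of its 9 comparisons, all against sham. On the log2 scale, it averaged 0.40 ± 0.134 (SD, n = 6) in sham border zones, against 0.88 ± 0.251 in MI and 0.92 ± 0.280 in MI+Cell Sheet hearts. MI exceeded sham by 0.48 on the log2 scale (exact permutation p = 0.00649, adjusted p = 0.0319), and MI+Cell Sheet by 0.52 (exact permutation p = 0.00866, adjusted p = 0.039). MI+Cell Sheet and sham infarct zones did not overlap in this ratio and differed by 1.49-fold (exact permutation p = 0.00216, adjusted p = 0.0195). MI infarct zones did not pass against sham (0.63 on the log2 scale, exact permutation p = 0.0238, adjusted p = 0.0677), nor did any remote zone or any comparison of MI+Cell Sheet with MI. The infarct zone call held under all 20 other settings, and each border zone call under 16 of 20, with adjusted p up to 0.0629 for MI and 0.0584 for MI+Cell Sheet (exact permutation tests).

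**Figure D2:**
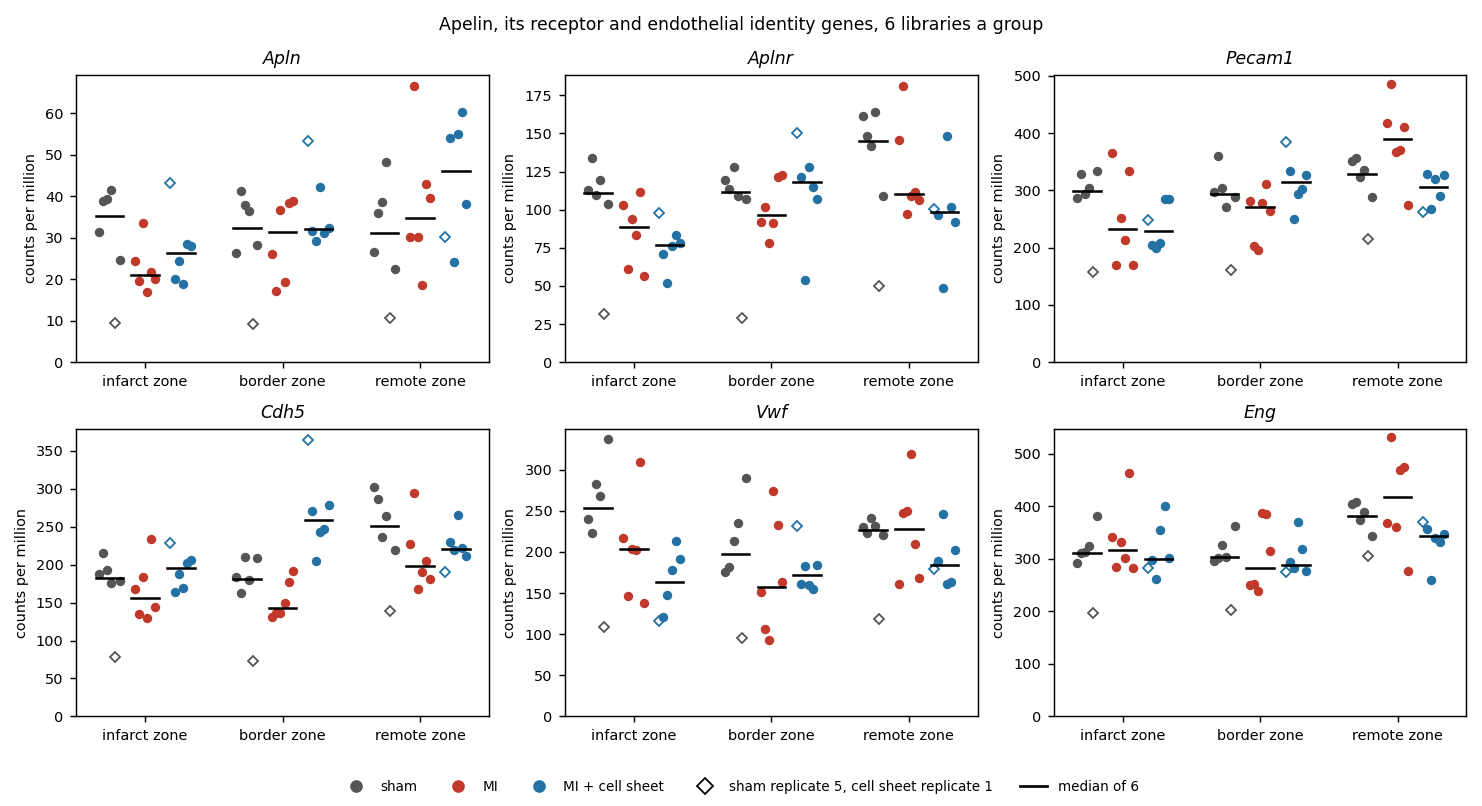
Levels of Apln, Aplnr, Pecam1, Cdh5, Vwf and Eng in CPM (vertical axes, linear) in each of the 54 libraries, by zone and treatment, with 6 points a group and a bar at the median; open diamonds mark sham replicate 5 and MI+Cell Sheet replicate 1. All 6 MI+Cell Sheet border zones lay at or above 204.4 CPM for Cdh5, above the highest MI border zone at 192.2 CPM.

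Apelin and its receptor showed no change that passed the test with all libraries. Apln in the infarct zone measured 9.51, 35.1 and 41.4 CPM in sham, 17.0, 21.0 and 33.6 CPM in MI, and 19.0, 26.2 and 43.2 CPM in MI+Cell Sheet hearts (lowest, median and highest). Aplnr measured 31.5, 111.2 and 133.8 CPM in sham, 56.5, 88.6 and 111.9 CPM in MI, and 51.7, 77.1 and 97.6 CPM in MI+Cell Sheet hearts. The lowest sham value was that of replicate 5 for both genes, and the treatments overlapped. Without that heart, MI was lower than sham in Apln (log2 difference −0.62, adjusted p = 0.00971, edgeR's quasi-likelihood test) and Aplnr (−0.44, adjusted p = 0.0399, edgeR), and MI+Cell Sheet was lower in Aplnr (−0.61, adjusted p = 0.00216, edgeR). With all libraries, the direction of Aplnr in MI against sham turned when libraries were scaled by their totals alone, which moved the median log2 difference over all genes from −0.0214 to 0.239.

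Border zone Apln medians were 32.4 CPM in sham, 31.3 CPM in MI and 32.0 CPM in MI+Cell Sheet hearts. Aplnr medians there were 111.4 CPM, 96.7 CPM and 118.1 CPM in the same order. All 3 treatments overlapped for both genes. In the remote zone, Apln measured 10.6, 31.2 and 48.2 CPM in sham, 18.6, 34.8 and 66.4 CPM in MI, and 24.2, 46.0 and 60.3 CPM in MI+Cell Sheet hearts, while Aplnr measured 50.2, 144.8 and 164.2 CPM, 97.2, 110.3 and 181 CPM, and 48.4, 98.4 and 148.3 CPM in that order. Among the 3 remote groups, the median of the ligand was thus highest, and that of its receptor lowest, in hearts with the sheet, with overlap between all 3.

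The ratio of Apln to Aplnr separated these remote zones. It averaged −2.13 ± 0.302 (SD, n = 6, log2 scale) in sham and −1.17 ± 0.374 in MI+Cell Sheet hearts, a 1.95-fold difference with no overlap (exact permutation p = 0.00216, adjusted p = 0.0195). It was called under all 20 settings tried, sham replicate 5 left out among them. MI+Cell Sheet and MI differed by 0.62 on the log2 scale in the remote zone, which did not pass after adjustment (exact permutation p = 0.0368, adjusted p = 0.0946).

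Among the identity genes, Cdh5, the cadherin of endothelial junctions, was higher in the border zone of hearts with the sheet. The 6 MI hearts measured 130.6, 136.5, 136.6, 149.9, 176.6 and 192.2 CPM, and the 6 MI+Cell Sheet hearts 204.4, 243.0, 247.4, 270.8, 278.8 and 364.8 CPM, each set in ascending order. Sham hearts measured 72.6, 181.8 and 210 CPM (lowest, median and highest). The groups with and without the sheet did not overlap, and they differed by 1.77-fold (log2 difference 0.82, SE 0.149, adjusted p = 0.00339, edgeR's quasi-likelihood test). The highest value came from MI+Cell Sheet replicate 1, and without it the difference was 0.72 (adjusted p = 0.00414, edgeR). Against sham, MI+Cell Sheet was higher by 1.57-fold in the border zone (log2 difference 0.65, SE 0.236, adjusted p = 0.0416, edgeR), with overlap, and this call was lost without MI+Cell Sheet replicate 1 and kept under 9 of 19 alternatives.

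Cdh5 did not pass in the infarct zone, where medians were 182.7 CPM in sham, 156.7 CPM in MI and 195 CPM in MI+Cell Sheet hearts, nor in the remote zone, where they were 250.4, 197.7 and 221.1 CPM. With the infarct and border zone counts of each animal summed, Cdh5 was the 1 gene of 10 called between MI+Cell Sheet and MI (background 12.1%), at a log2 difference of 0.54 (SE 0.132, adjusted p = 0.0229, edgeR's quasi-likelihood test). Whether the effect of the sheet on Cdh5 differed between zones was tested directly. The border zone effect exceeded that in the infarct zone by 0.59 (SE 0.179, adjusted p = 0.239, edgeR) and that in the remote zone by 0.75 (SE 0.228, adjusted p = 0.127, edgeR), and neither passed. These zone terms were called by edgeR for 0 of the 10 genes and 0% of all genes, with 1 and 4 of the 10 at an unadjusted p under 0.05, and DESeq2 called 0 and 2 of them. For MI against sham, the term between border and remote zones was also called for 0 of 10 genes and 0% of all genes (3 of 10 at an unadjusted p under 0.05, DESeq2 0).

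Fat tissue markers moved with the sheet in the border zone. The summed level of 6 adipocyte markers was 0.06 to 35.6 CPM in MI (median 0.90) and 0.24 to 635.8 CPM in MI+Cell Sheet hearts (median 241.1). The MI+Cell Sheet hearts with the highest sums, replicates 6 (635.8 CPM) and 1 (436.8 CPM), had the highest Cdh5 levels, 278.8 and 364.8 CPM. Replicates 3 and 4, with the lowest sums (0.24 and 6.25 CPM), had the lowest Cdh5 levels, 204.4 and 243.0 CPM, both above the highest MI heart at 192.2 CPM. Replicates 5 and 2 broke this order, with adipocyte sums of 353.1 and 129 CPM beside Cdh5 levels of 247.4 and 270.8 CPM. The sums of mesothelial and macrophage markers followed the Cdh5 order throughout, from 674.3 and 2819 CPM in replicate 1 to 47.0 and 557.7 CPM in replicate 3. Among MI hearts, replicate 1 had the highest adipocyte, mesothelial and macrophage sums (35.6, 506.6 and 2214 CPM) but the lowest Cdh5 level, 130.6 CPM. The cardiomyocyte sums were 5048 to 31480 CPM in MI and 184.8 to 33690 CPM in MI+Cell Sheet border zones, and the mural sums 1224 to 2333 CPM and 1918 to 3237 CPM. The 2 border zone libraries with high lung markers, MI replicate 3 and MI+Cell Sheet replicate 4, had Cdh5 levels of 136.6 and 243.0 CPM. The part of fat tissue, of lung tissue and of the other cells in the Cdh5 level was not tested, nor was that of reads from the grafted human cells.

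Pecam1, another junction protein, passed edgeR's test in none of the comparisons within zones with all libraries. Its medians were 298.9, 232.1 and 228.7 CPM in the infarct zone, 293, 270.7 and 314.9 CPM in the border zone and 329.4, 389.8 and 305.6 CPM in the remote zone, for sham, MI and MI+Cell Sheet in that order. The treatments overlapped in every zone. In the remote zone, MI+Cell Sheet was lower than MI by 1.31-fold at an adjusted p just above the threshold (log2 difference −0.39, SE 0.131, adjusted p = 0.0581, edgeR's quasi-likelihood test), and it was called by DESeq2 and without MI+Cell Sheet replicate 1 (−0.35, adjusted p = 0.0455, edgeR). In the border zone, MI+Cell Sheet lay above MI by 0.32 on the log2 scale, which did not pass (SE 0.141, unadjusted p = 0.04, adjusted p = 0.133, edgeR). The border zone effect of the sheet exceeded that in the remote zone by 0.73, which did not pass either (SE 0.201, unadjusted p = 0.00322, adjusted p = 0.11, edgeR). Leaving out sham replicate 5, MI+Cell Sheet was lower than sham in the infarct zone (−0.39, adjusted p = 0.015, edgeR).

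Vwf, which tethers platelets to the vessel wall, had medians of 254, 203 and 162.9 CPM in sham, MI and MI+Cell Sheet infarct zones. MI+Cell Sheet was lower than sham by 1.51-fold there, which did not pass (log2 difference −0.60, SE 0.256, adjusted p = 0.0628, edgeR's quasi-likelihood test) and did so without sham replicate 5 (−0.76, adjusted p = 0.00251, edgeR). In the border zone its medians were 197.4, 157.8 and 171.5 CPM, and in the remote zone 226.3, 228.4 and 184.4 CPM, with overlap throughout. Markers of platelets, which carry Vwf of their own, summed to 20.2 to 109.6 CPM in sham, 58.4 to 145.1 CPM in MI and 59.8 to 157.1 CPM in MI+Cell Sheet infarct zones, and 1 of the 7 was at 0 in each of these groups. Their part in the Vwf level was not tested.

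Eng, the TGF-β family co-receptor, was the most even of the identity genes, with medians of 312.1, 317 and 299.9 CPM in the infarct zone, 302.9, 283.3 and 288.2 CPM in the border zone and 382.3, 418.8 and 344 CPM in the remote zone, again for sham, MI and MI+Cell Sheet. The treatments overlapped in every zone. It passed in none of the comparisons with all libraries or without sham replicate 5 under TMM scaling. Scaled by library totals alone, MI exceeded sham in the infarct zone (log2 difference 0.42, adjusted p = 0.0417, edgeR).

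Vwf and Eng were also set against Cdh5 within the same library, a ratio that contains the Cdh5 levels given above and is not independent of them. The log2 ratio of Vwf to Cdh5 was −0.57 ± 0.209 (SD, n = 6) in MI+Cell Sheet and 0.23 ± 0.220 in sham border zones, with no overlap (1.74-fold lower, exact permutation p = 0.00216, adjusted p = 0.0195). In the infarct zone it was lower in MI+Cell Sheet than in sham by 0.78 on the log2 scale (exact permutation p = 0.00649, adjusted p = 0.0319) and lower than in MI by 0.55 (exact permutation p = 0.0108, adjusted p = 0.039), the latter kept in 7 of 20 settings. MI+Cell Sheet and MI border zones overlapped in the ratio and did not pass (−0.63 on the log2 scale, exact permutation p = 0.0238, adjusted p = 0.0677). The log2 ratio of Eng to Cdh5 was 0.19 ± 0.368 in MI+Cell Sheet, 0.97 ± 0.239 in MI and 0.87 ± 0.307 in sham border zones. MI+Cell Sheet overlapped with neither MI nor sham in this ratio (exact permutation p = 0.00216, adjusted p = 0.0195, for each), while the level of Eng itself passed against neither.

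Angpt2 relative to Cdh5, a measure of the ligand beside an endothelial gene, was 2.28-fold higher in MI than in sham border zones (exact permutation p = 0.0108, adjusted p = 0.039) and 2.92-fold higher in MI+Cell Sheet than in sham infarct zones (exact permutation p = 0.00433, adjusted p = 0.0292). It was 1.98-fold higher in MI+Cell Sheet than in sham border zones (exact permutation p = 0.0108, adjusted p = 0.039). Of 20 other settings, these 3 calls held under 14, 20 and 13 in turn. Of the 54 ratio comparisons, 15 had an adjusted p under 0.05. The same 15 passed without sham replicate 5, but 8 of them without sham replicate 3, 4 or 6, 9 without sham replicate 2 and 12 without sham replicate 1.

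**Figure D3:**
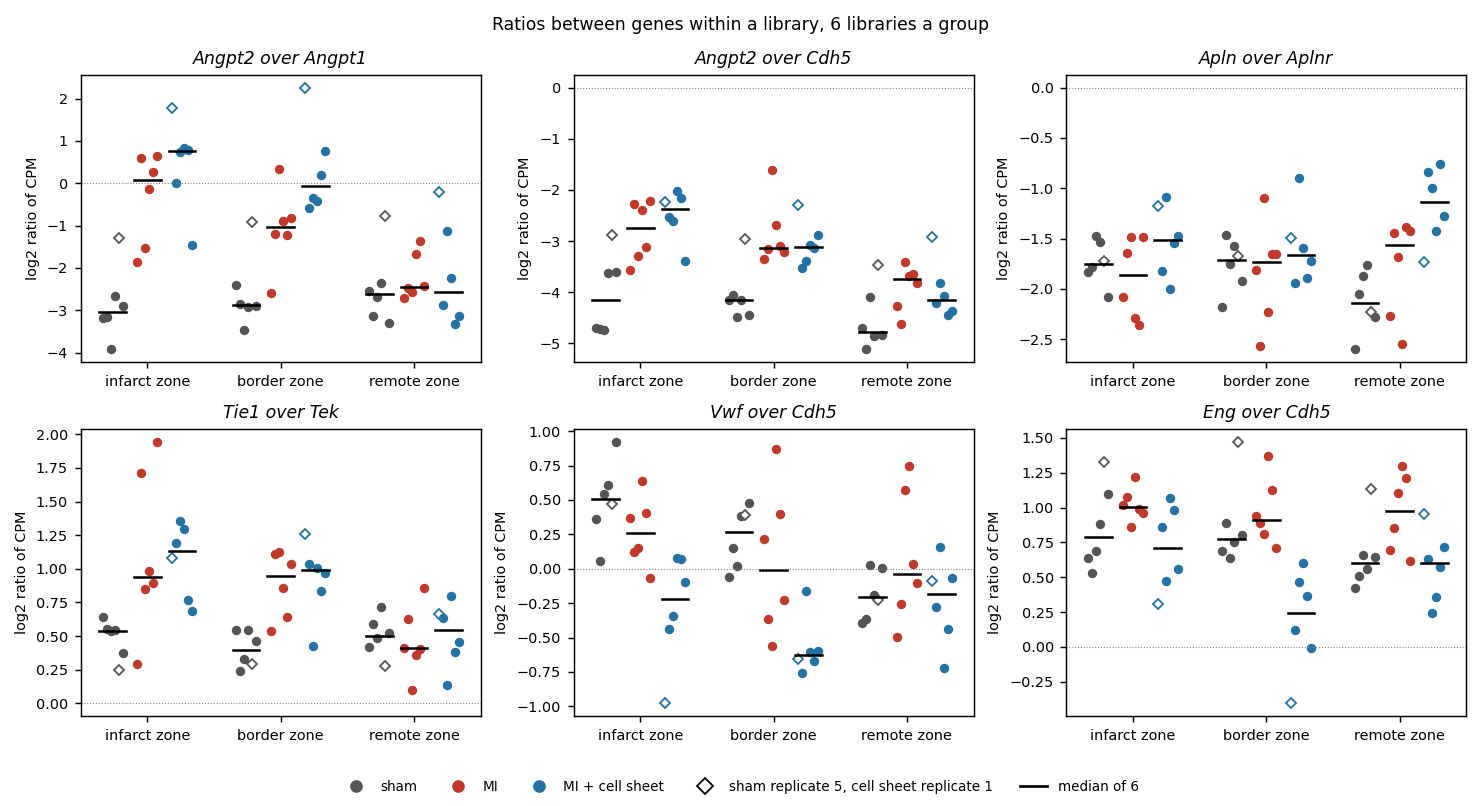
Log2 ratios of 6 pairs of genes in each library (vertical axes), by zone and treatment, with 6 points a group and a bar at the group median. The ratio of Angpt2 to Angpt1 was higher in MI and MI+Cell Sheet infarct zones than in sham, and the ratio of Eng to Cdh5 in MI+Cell Sheet border zones lay below those of MI and sham without overlap.

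**Figure D4:**
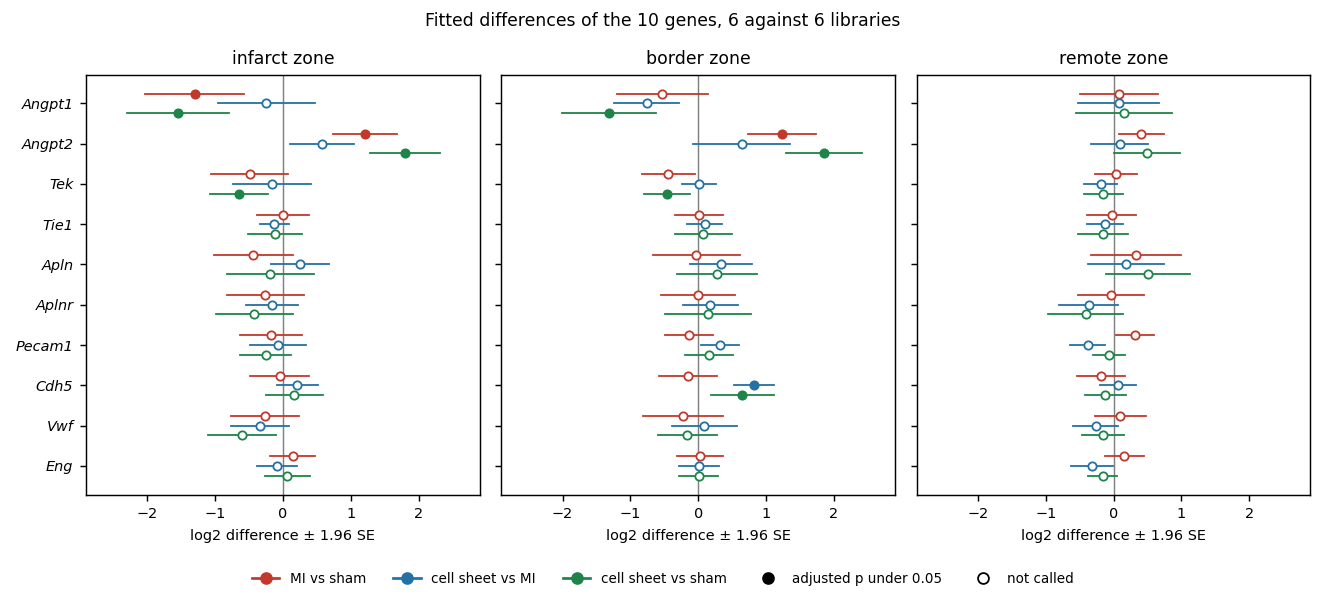
Fitted log2 differences of the 10 genes (horizontal axes) with bars for the approximate 95% interval, for 3 zones and 3 pairs of treatments with 6 libraries a group; filled points have an adjusted p under 0.05. Filled points stand for 2 genes in infarct and 1 in border tissue for MI against sham, 1 in the border zone for MI+Cell Sheet against MI, and 3 and 4 genes for MI+Cell Sheet against sham in these zones.

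Ordered by their medians over the 9 groups, no gene had neighbouring groups that were free of overlap. The ratio of the highest to the lowest median was 3.85 for Angpt2 and 3.37 for Angpt1, 1.99 for Tek, 2.19 for Apln, 1.88 for Aplnr, 1.81 for Cdh5, 1.70 for Pecam1, 1.61 for Vwf, 1.48 for Eng and 1.26 for Tie1. Angpt2 was highest in MI+Cell Sheet and lowest in sham infarct zones. Angpt1 was highest in the remote zone and lowest in the border zone of hearts with the sheet.

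Within groups, the genes varied together to different degrees. Pearson's r of the deviations of log2 CPM from group means was computed over the 54 libraries, which share animals in threes and differ in depth, and without the 3 libraries of sham replicate 5. Tek and Pecam1 were closest, at 0.93 (0.89 without sham replicate 5). Tie1 and Aplnr followed at 0.91 (0.75). Angpt1 and Angpt2 deviated in opposite directions, at −0.466 (−0.565). Several other values rested on sham replicate 5, such as Tie1 and Vwf at 0.59 (0.16) and Angpt1 and Cdh5 at 0.50 (−0.02).

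**Figure D5:**
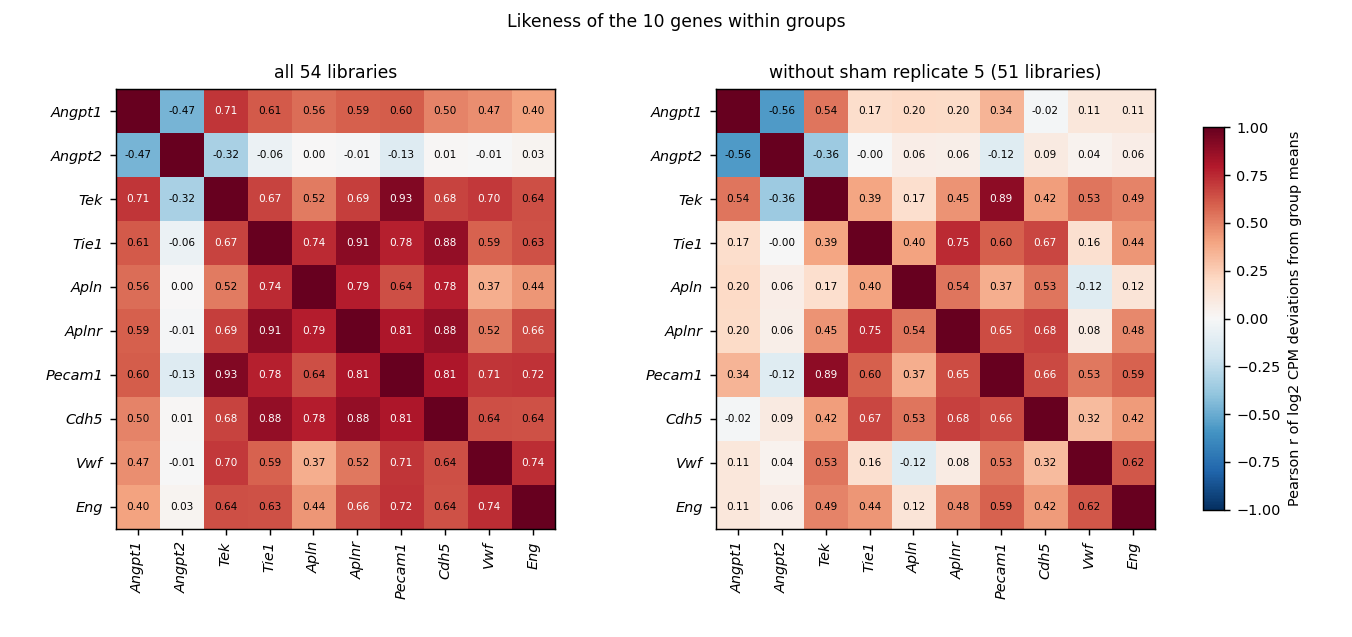
Pearson's r between the 10 genes, from deviations of log2 CPM from group means, over all 54 libraries and over the 51 libraries without sham replicate 5; both axes list the genes and colour gives r. Tek and Pecam1 stayed close in both (0.93 and 0.89), while Angpt2 reached at most 0.0901 with any other gene.

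Among 13292 genes with a mean log2 CPM of at least 1, the 3 that deviated most like each gene are given as a description. For Tek they were Adgrf5 (r = 0.94), Cyyr1 (0.94) and Kitlg (0.93), for Pecam1 Tek (0.93), Esam (0.91) and Tmem88 (0.91), and for Cdh5 Card10 (0.88), RGD1306556 (0.88) and Mgll (0.88). For Vwf they were Tns2 (0.80), Stard13 (0.78) and Flt1 (0.76), and for Eng Heg1 (0.79), Ednrb (0.78) and Ramp2 (0.76). Tie1 was followed by Aplnr (0.91), Card10 (0.89) and Cdh5 (0.88), Aplnr by Tie1 (0.91), Cdh5 (0.88) and Pcdh19 (0.88), and Apln by Eml1 (0.83), Gprc5b (0.82) and Mgll (0.81). For Angpt1 they were Nudt4 (0.91), Sh3glb1 (0.89) and Abcd3 (0.88), and for Angpt2 Lmna (0.76), Dab2 (0.73) and Socs5 (0.72). Without sham replicate 5, Nudt4 stayed first for Angpt1 (0.835), Tek for Pecam1 (0.89), Aplnr for Tie1 (0.75) and Heg1 for Eng (0.73). Tie1 also stayed first for Aplnr (0.75). The first gene changed to Plekhg6 for Angpt2 (0.76), Jam2 for Tek (0.92), Pcyox1l for Apln (0.78), LOC100911068 for Cdh5 (0.79) and Radil for Vwf (0.685). For Cdh5, none of the 3 genes stayed among the nearest.

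Other genes of the same pathways were read from lists. The called list genes with the largest changes gave 181 combinations of gene and comparison. Of these, 77 lost their call under at least 1 alternative setting, and 0 reversed direction. Of 5 further genes of the angiopoietin-Tie pathway tested, 1 was higher and 1 lower in MI than in sham in each of the 3 zones. Over all genes, 49.9%, 41.7% and 25.8% were called in the infarct, border and remote zones. Svep1, an extracellular matrix protein that binds Tie1, was higher by 2.31 in the infarct, 2.58 in the border and 1.69 in the remote zone (log2 differences, adjusted p = 4.36e-05, 0.000195 and 0.000583, edgeR's quasi-likelihood test). Foxo1, the transcription factor that Tek signalling restrains, was lower in each zone, with log2 differences of −0.54, −0.53 and −0.49 (adjusted p = 0.00559, 0.00662 and 0.00827, edgeR). MI+Cell Sheet exceeded MI in 2 of 6 in the border zone, namely Svep1 (log2 difference 2.18, SE 0.59, adjusted p = 0.024) and Foxo1 (0.44, SE 0.118, adjusted p = 0.0233), both from edgeR. The median log2 difference of the list in that comparison was 0.37, against −0.0044 over all genes, of which 8.47% were higher.

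In the infarct and border zones, 22.7% and 18.4% of all genes were higher in MI than in sham, and 27.2% and 23.2% were lower. The counts in this paragraph stand beside these shares, with no test of the lists. Of 5 tested genes that process apelin or pass on its signal, 2 were higher in MI than in sham in infarct and border tissue alike. They were the arrestin Arrb1 (log2 differences 0.55 and 0.49) and the protease Furin (0.52 and 0.30). In the remote zone Furin was lower (−0.35, adjusted p = 0.0256, edgeR's quasi-likelihood test). Of 6 tested partners of endoglin, 3 were higher in the infarct zone of MI hearts, led by the TGF-β receptors Tgfbr1 (1.35) and Tgfbr2 (0.83), and 2 in the border zone. Selp, the P-selectin stored with Vwf in endothelial granules and in platelets, was higher in MI by 2.07 in the infarct and 2.56 in the border zone (adjusted p = 0.0015 and 0.0132, edgeR). It was the 1 of 2 partners of Vwf called in the infarct zone, and of 3 tested in the border zone 1 was lower, the platelet receptor gene Gp1ba (−1.95, adjusted p = 0.000811, edgeR).

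Of 23 other pan-endothelial genes tested, 1 was higher and 2 lower in MI than in sham infarct zones, and 1 higher and 6 lower in border zones, where 49.9% and 41.7% of all genes were called. Kdr, the main VEGF receptor, was lower in the infarct zone (log2 difference −0.97, adjusted p = 0.0125, edgeR's quasi-likelihood test), and Lyl1, a transcription factor that blood cells also use, was higher (1.51, adjusted p = 0.00469, edgeR). The median of the list was −0.17 in infarct and −0.21 in border tissue, against −0.02 over all genes in both. Leaving out sham replicate 5, 6 were lower in the infarct and 10 in the border zone, where 64.8% and 60.8% of all genes were then called in either direction. Remote tissue had 1 of 22 higher and 0 lower, beside 11.7% of all genes higher and 14.2% lower. Of 23, 3 were higher in MI+Cell Sheet than in MI border zones, led by Sox17 (0.87) and Cd93 (0.55), while 4 of 22 were lower in the remote zone, led by Lyl1 (−0.84) and Emcn (−0.48), beside 8.47% of all genes higher in the border and 6.79% lower in the remote zone.

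Of 12 genes of endothelial and other cell junctions, 3 were higher and 1 lower in MI+Cell Sheet than in MI border zones, beside the rise of Cdh5. Of all genes, 8.47% were higher and 9.48% lower in that comparison. Gja1, the connexin that also joins cardiomyocytes, was higher by 0.83 (SE 0.173, adjusted p = 0.00717), the tight junction scaffold Tjp1 by 0.68 (SE 0.117, adjusted p = 0.00254), and the endothelial claudin Cldn5 was lower (−0.62, SE 0.177, adjusted p = 0.0303), all from edgeR's quasi-likelihood test. Of 12 capillary genes, 0 were higher and 4 lower in MI than in sham infarct zones and 5 in border zones (10 and 10 without sham replicate 5), beside 27.2% and 23.2% of all genes, with list medians of −0.91 and −0.84 and with the fatty acid transporter Cd36 at −1.97 and the glycerol channel Aqp7 at −2.63 in the infarct zone. Cardiomyocytes and adipocytes also express several of these lipid-handling genes.

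In MI against sham, 22.7% of all genes were higher and 27.2% lower in the infarct zone, and 18.4% and 23.2% in the border zone, and the counts that follow stand beside these shares with no test of the lists. Of 9 venous or activated genes, 5 were higher in MI than in sham infarct zones and 4 in border zones, with 0 lower in either, and 8 and 7 were higher without sham replicate 5. Of 12 genes of tip cells, the cells that lead a vessel sprout, the same 9 were higher in both zones, with 0 lower in the infarct zone and 1 lower in the border zone (Esm1, −1.38). They were led by the urokinase receptor Plaur (2.22) and the placental growth factor Pgf (2.05) in the infarct zone, both of which other cells make as well. Of 9 arterial genes, 4 were higher and 1 lower in the infarct zone, led by Fbln5 (1.58) and Gja4 (0.86). Of 7 lymphatic genes, 5 were higher, led by Ccl21 (1.76) and Pdpn (1.41), and Prox1, which cardiomyocytes also express, was lower (−1.51). Of 15 hypoxia targets, the same 5 were higher in both zones, and 6 were lower in each zone, 5 of them in both. Ca9 stood at 2.69 and Pdk1 at −1.91 in the infarct zone. In the infarct zone, 0 genes of these lists were called between MI+Cell Sheet and MI by edgeR, where 0 of all genes were called, 1341 had an unadjusted p under 0.05 and DESeq2 called 59.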

How the data were processed

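Polyadenylated RNA of 54 rat heart libraries (9 groups of 6) was measured by sequencing. The authors deposited raw counts of reads per gene, not normalized, in 1 table per library. Reads had been aligned with STAR, by the study's methods, to mRatBN7.2, the build in the submitters' processing notes. The counting program and strand setting were not given in the sources used here. Lines that name no gene (17.0% to 42.8% of all counts per library) were not used.

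Genes were kept by edgeR's filterByExpr, scaled by TMM factors and tested with edgeR's quasi-likelihood test (edgeR 4.0.16, limma 3.58.1, R 4.3.3), 6 against 6 libraries within a zone. P-values were adjusted over all genes by the Benjamini-Hochberg method, with a threshold of 0.05. Infarct and border counts of an animal were summed for 1 comparison, and the treatment-by-zone terms were fitted with the animal as a block. The study took all 3 zones from each animal, so the number in a sample title was read as the animal within a treatment, while equal numbers in different treatments were different animals. Over pairs of zones, deviations of equal numbers correlated above 0.1 in 6 of 6 sham animals and in 2 to 4 of 6 in MI and in MI+Cell Sheet, so the values bear the pairing out unevenly. Levels are CPM, and ratios used log2 CPM with an offset of 0.1 CPM. DESeq2 1.42.0, other filters and scalings, a replicate block, a joint fit of all groups and leaving out each replicate were alternatives. All 10 genes were named, and of each list at most the 2 called genes with the largest change in each direction. The steps were tested on simulated counts. The members and lists were chosen with earlier results of these data known. Intervals and p-values cover the spread between these libraries.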

Additional observations from a re-analysis of the deposited data

Results flagged for a closer look

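In 17 of 90 combinations of gene, zone and treatment, the highest or lowest library stood far from the other 5 by Dixon's criterion, which chance meets in about 1 of 20 groups. Sham replicate 5 was the lowest library in 10 of them. It measured 73.6 CPM for Tek in the border and 76.1 CPM in the infarct zone, 90.2 and 90.5 CPM for Tie1, 29.3 and 31.5 CPM for Aplnr, and 72.6 and 78.2 CPM for Cdh5 in the same zones. It was also lowest for Pecam1 in the infarct zone (158 CPM) and for Vwf in the remote zone (119 CPM). MI+Cell Sheet replicate 1 was highest for Angpt2 in the border zone (74.5 CPM) and in the remote zone (25.1 CPM).

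MI replicate 1 was highest for Angpt1 (77.5 CPM) and MI replicate 3 highest for Angpt2 (44.6 CPM) in the border zone. MI+Cell Sheet replicate 6 was highest for Angpt1 in the infarct zone (53.5 CPM). Eng was lowest in the remote zone of MI+Cell Sheet replicate 3 (260 CPM) and highest in the infarct zone of MI replicate 5 (464 CPM). The difference of MI from sham in Angpt1 was lower in the infarct than in the remote zone (−1.445 on the log2 scale), by a test of that difference.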

How the results depend on the processing

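Without TMM factors, 3 genes were called for MI against sham in the infarct zone (Eng added) and 2 in the remote zone, 4 for MI+Cell Sheet against sham in the infarct zone, 1 for MI+Cell Sheet against MI in the remote zone and 2 for the zone term of the infarct. That scaling turned the direction of Aplnr (0.024), Pecam1 (0.091), Cdh5 (0.24) and Vwf (0.024) for MI against sham in the infarct zone, of Cdh5 (0.061) in the border zone, of Tie1 (0.18), Apln (0.13) and Pecam1 (0.043) for MI+Cell Sheet against sham in the infarct zone, and of Vwf (0.13) in the border zone. It moved the median of all genes to 0.239 and 0.168 for MI and 0.276 and 0.238 for MI+Cell Sheet against sham in the infarct and border zones.

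With DESeq2, 2 genes were called for MI+Cell Sheet against MI in border and 1 in remote tissue, and the zone terms gave 4 (MI against sham, infarct against remote) and 2 (MI+Cell Sheet against MI, border against remote). With at least 10 counts in every library, 2 and 1 were called in the same border and remote comparisons. Without a filter, 2 were called for MI+Cell Sheet against sham in the border zone and 2 for the zone term. The treatments shared replicate numbers but not animals, and the deviations of equal numbers did not go together (at most 2 of 6 pairs correlated above 0.1). A replicate block over these numbers left 2 genes for MI+Cell Sheet against sham in the border zone and 0 in the summed zones, and moved the calls over all genes to 4193 for MI against sham in the border zone, to 1214 and 2 for MI+Cell Sheet against MI in the border and remote zones and to 477 in the summed zones. A joint fit of 3 treatments also left 0 in the summed zones, and the zone term without the block for the animal left 0, with 1431 calls over all genes.

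Leaving out libraries gave 2 to 4 genes for MI against sham in the infarct zone, 1 to 4 in the border and 0 to 1 in the remote zone, 1 to 2 and 0 to 1 for MI+Cell Sheet against MI in the border and remote zones, 2 to 8 and 2 to 5 for MI+Cell Sheet against sham in the infarct and border zones, 1 to 4 for the zone term (4 without MI replicate 1) and 8 to 19 called ratios (8 without sham replicate 3, 4 or 6, 9 without sham replicate 2). For MI+Cell Sheet against sham, these fits spanned −0.037 to 0.24 for Cdh5 and −0.046 to 0.14 for Eng in the infarct zone and −0.024 to 0.24 for Pecam1 in the border zone (log2 differences). The cause of these moves was not tested. Over all genes, leaving out a library moved the count for MI+Cell Sheet against MI in the remote zone from 1096 to 6450 (the latter without MI+Cell Sheet replicate 1) and for MI against sham there to 7177 without sham replicate 5. Angpt1 and Angpt2 kept their calls against sham, and Cdh5 between MI+Cell Sheet and MI in the border zone, under every alternative. Of 140 combinations of gene and comparison, 101 were called under no setting, and 45 of those changed sign under at least 1.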
